A study of Mus musculus with 14 samples.

Results

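The 9 genes described here code for the urea cycle and for the glutamine step that precedes or replaces it in the liver: Nags, Cps1, Otc, Slc25a15, Ass1, Asl, Arg1, Glul and Gls2. They were taken by symbol from the 25212 genes of the count table, and all 9 were found and passed the filter on low counts, which left 14252 genes for testing. The RNA of 14 livers, each from a male C57BL/6 mouse, was sequenced as 1 library per liver. All of the mice received a high-fat diet with 60% of its energy from fat, begun at 6 weeks of age and given for 12 weeks before surgery and also afterwards. The diet-induced obese group (DIO, 5 livers) had no operation, and no sham-operated livers were among the 14. In the GB-IL group (4 livers) the gallbladder had been joined to the ileum and the common bile duct tied, and the RYGB group (5 livers) had received Roux-en-Y gastric bypass. Livers of operated mice were labelled as taken 8 weeks after the operation. A figure legend in the paper places the liver expression of 1 set of genes at 4 weeks instead. The comparisons ask how each way of rerouting bile or food changed these genes relative to obese mice on the same diet, and how the 2 operations differed.

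The urea cycle turns ammonia, which is toxic, into urea for excretion, and in mammals the complete cycle runs mainly in the hepatocytes around the portal vein. Its first steps lie in the mitochondria, where NAGS makes the activator that CPS1 needs to fix ammonia, OTC joins the product to ornithine, and the carrier SLC25A15 brings ornithine in and takes citrulline out. ASS1, ASL and ARG1 complete the cycle in the cytosol. Liver-type glutaminase (GLS2) releases ammonia from glutamine in the same periportal cells, whereas glutamine synthetase (GLUL), found in the few hepatocytes next to the central vein, captures the ammonia that escaped the cycle.

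The total count per liver ranged from 18223135 to 28656631, and the smallest count of any member in any liver was 807, for Otc. Levels below are counts relative to library size (CPM) scaled by the TMM method, and each mean carries its SD over the livers of a group. Because bulk RNA was measured, fewer cells of a type and less RNA per cell cannot be told apart. On the first principal component of all tested genes, which held 48.5% of the variance, GB-IL liver 4 (35.3) lay among the DIO livers (21.9 to 45.7), whereas GB-IL livers 1, 2 and 3 lay at -134, -106 and -20.1 and RYGB liver 5 at -17.4. Sums over marker lists were instead taken as CPM of the total count. The sum of 12 hepatocyte markers, albumin among them, was 136126 to 158432 CPM in DIO, 107832 to 149404 in GB-IL and 136577 to 171491 in RYGB, and none of the 12 was at 0 over a whole group. Albumin was its largest single gene, and the list did not move as 1 block, by genes named after their values were seen. On the TMM scale, Alb, Ttr and Apob were below the DIO range in both GB-IL livers 1 and 2. Apoa1, Fgb, Ahsg and Tat were above it there. Ttr measured 1607 and 2186 CPM against 5696 to 9294 in DIO, and Fgb 20858 and 9930 against 3184 to 4967.

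Levels of different genes were compared per length, as CPM divided by the exon length in kilobases (RPKM). In DIO livers the order from highest to lowest was Ass1 (926 ± 178 RPKM, n = 5), Cps1 (644 ± 214), Arg1 (521 ± 105), Glul (367 ± 53.0), Asl (181 ± 90.7), Gls2 (120 ± 14.5), Otc (107 ± 11.5), Slc25a15 (64.2 ± 12.7) and Nags (24.4 ± 3.70). The ranges over livers overlapped between the neighbours Ass1 and Cps1, Cps1 and Arg1, Asl and Gls2, and Gls2 and Otc, so those pairs cannot be ordered beyond their spread. Ass1 stood first in GB-IL and Cps1 in RYGB, and Nags, which codes for a regulatory enzyme rather than a bulk one, stood last in all 3 groups. The summed CPM of the 9 genes was 10368 ± 2225 in DIO (n = 5), 12864 ± 4487 in GB-IL (n = 4) and 9751 ± 1446 in RYGB (n = 5), and the ranges of the 3 groups overlapped.

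The genes lie apart in the genome (GENCODE M21 on GRCm38, mm10), with Cps1 at chr1:67123026-67231259 and Glul on the same chromosome at chr1:153899944-153909723. Otc is X-linked, at chrX:10252305-10321024. Nags overlaps the antisense gene Gm11586 over 443 exonic bases, Glul overlaps Teddm2 over 116 bases and the miRNA gene Mir8114 over 93, and Gls2 overlaps Spryd4 over 97. The strand setting of the counting is not given in the sources used here, so reads in those stretches cannot be assigned to 1 gene with certainty. Of these neighbours, Gm11586 had 6 to 24 counts per liver, Teddm2 1 to 11 and Mir8114 0 to 8, against at least 1085 for Nags and 6280 for Glul. Spryd4 had 440 to 1075 counts, against at least 4186 for Gls2.

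The 250 bases before the RefSeq start (GRCm38.p6, all on the plus strand) are shown for 3 genes, because Otc and Glul were low and Nags high in the same GB-IL livers. They lie at chrX:10252055-10252304 for Otc, chr1:153899679-153899928 for Glul and chr11:102145263-102145512 for Nags. Capitals mark matches on either strand to the TATA core (letters TATAA), the CCAAT box (its own letters), the GC box (letters GGGCGG) and a nuclear receptor site (letters AGGTCA), and no 2 matches of different motifs overlapped in these windows.
Otc: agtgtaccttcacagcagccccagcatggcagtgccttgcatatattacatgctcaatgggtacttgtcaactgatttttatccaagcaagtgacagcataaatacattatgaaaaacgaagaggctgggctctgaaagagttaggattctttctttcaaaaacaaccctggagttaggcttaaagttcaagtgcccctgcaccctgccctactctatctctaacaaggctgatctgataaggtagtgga
Glul: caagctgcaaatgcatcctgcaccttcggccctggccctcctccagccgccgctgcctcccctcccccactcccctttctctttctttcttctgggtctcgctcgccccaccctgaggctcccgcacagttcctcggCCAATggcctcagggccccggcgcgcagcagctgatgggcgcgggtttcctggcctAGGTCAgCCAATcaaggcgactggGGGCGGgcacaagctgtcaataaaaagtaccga
Nags: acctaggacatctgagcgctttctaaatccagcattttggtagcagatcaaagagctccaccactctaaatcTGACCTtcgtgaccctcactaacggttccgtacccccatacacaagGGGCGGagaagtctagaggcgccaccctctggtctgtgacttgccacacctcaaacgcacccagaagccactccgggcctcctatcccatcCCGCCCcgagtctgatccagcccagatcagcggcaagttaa
The Otc window held none of the 4 motifs and was 43.6% G and C. The Glul window held 2 CCAAT boxes, 1 GC box and 1 AGGTCA, with 64.8% G and C, and the Nags window held 2 GC boxes and 1 AGGTCA, with 55.6%. Ass1 was also high in those GB-IL livers, and its window, not shown, held 1 GC box and none of the other motifs, with 75.6%. Over all 32851 windows of the same 250 bases, 22.8% held the TATA core, 33.8% the CCAAT box, 32.7% the GC box and 14% the nuclear receptor site, so each match is common and describes letters, not binding.

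With all 14 livers, none of the 9 genes differed between GB-IL and DIO when edgeR's quasi-likelihood test was read at a false discovery rate (FDR) of 0.05, at which 3.26% of all tested genes were called. At an unadjusted p under 0.05, Nags, Asl and Arg1 were higher in GB-IL and none was lower, against 23.1% of all tested genes. DESeq2 (9.11% of all genes called), edgeR's exact test (7.91%) and voom with sample quality weights (4.13%) also called 0 of the 9. No member separated the groups without overlap, as 4.17% of all tested genes did. The level in individual livers was far from uniform: Nags, Ass1, Asl and Arg1 were above every DIO liver in GB-IL livers 1 and 2, and Otc and Glul were below every DIO liver in the same 2 livers. These 2 livers also lay farthest from the DIO livers on the first principal component of all tested genes. The share of all tested genes outside the DIO range in single livers was not counted, here or for the lists below. Such positions are therefore not shown to be particular to these genes.

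**Figure D1:**
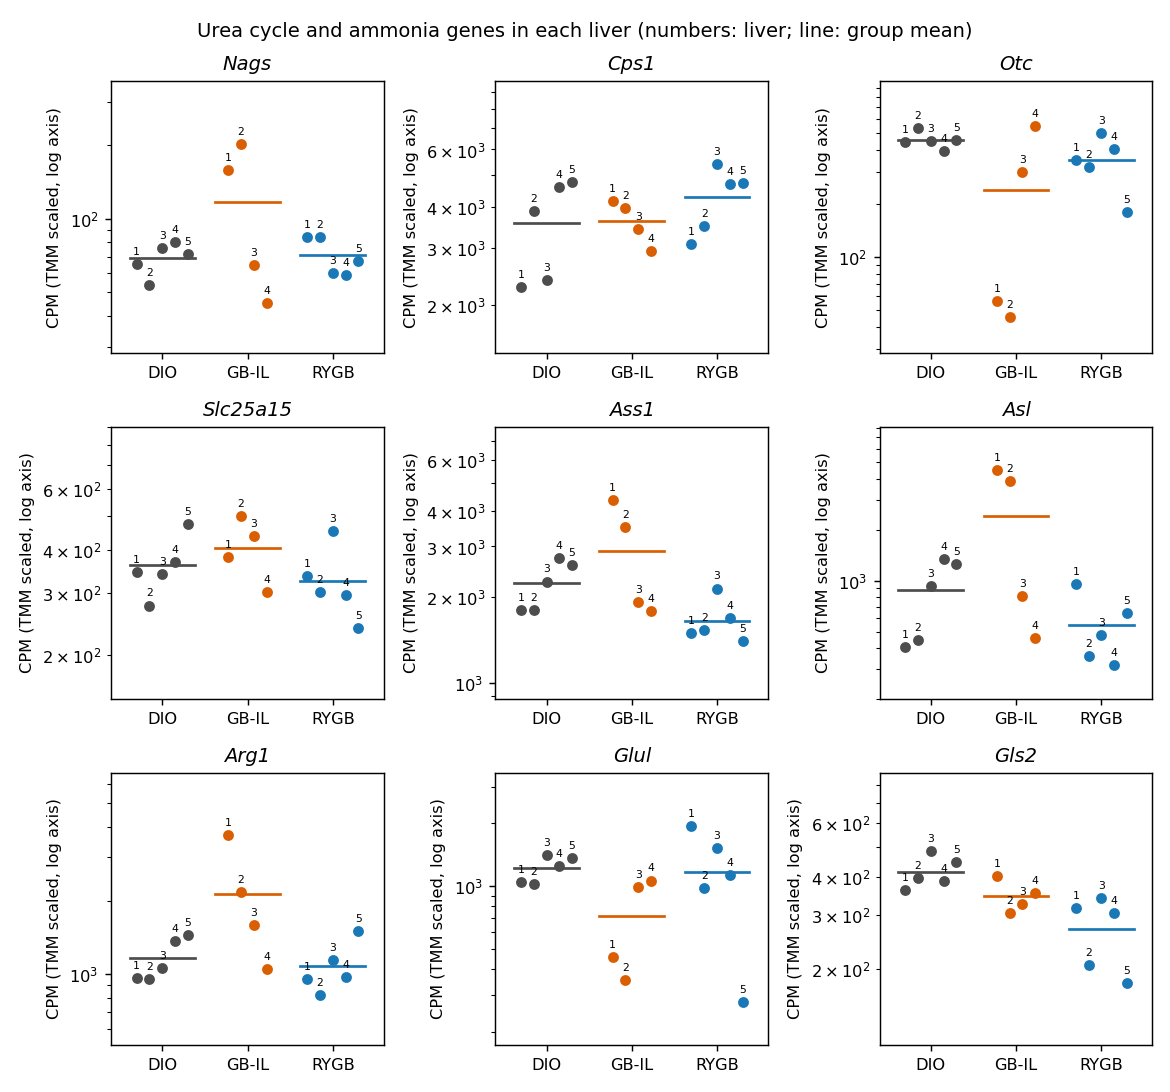
CPM (TMM scaled, log axis) of each of the 9 genes in every liver, with the liver number beside each point and a line at the group mean. In GB-IL, livers 1 and 2 stand apart from livers 3 and 4 for Nags, Otc, Ass1, Asl and Glul, and in RYGB liver 5 is the lowest for Otc and Glul.

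Of the mitochondrial steps, Nags measured 65.2, 53.4, 75.8, 80.4 and 71.9 CPM in DIO livers 1 to 5, and 158, 202, 64.5 and 45.2 in GB-IL livers 1 to 4. GB-IL livers 1 and 2 exceeded all DIO livers, liver 3 was inside their range and liver 4 below it. The group difference was 0.76 ± 0.34 on the log2 scale (SE, adjusted p = 0.202).

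Cps1, the enzyme that commits ammonia to the cycle, measured 2275, 3873, 2379, 4598 and 4768 CPM in DIO and 4182, 3960, 3426 and 2919 in GB-IL. Every GB-IL liver lay inside the DIO range, and the log2 difference was 0.02 with a 95% interval from -0.58 to 0.62 (adjusted p = 0.976). Within GB-IL its SD of log2 CPM was 0.23, smaller than that of most tested genes, since 9.56% had a smaller one. In DIO its SD was 0.52, and 83.6% of tested genes had a smaller one, so the DIO range was a wide one.

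Otc, the next enzyme, measured 444, 532, 449, 397 and 454 CPM in DIO and 56.2, 45.6, 302 and 547 in GB-IL. GB-IL livers 1, 2 and 3 lay below all DIO livers and liver 4 above all of them. The log2 difference was -0.94 ± 0.57 (SE, adjusted p = 0.317). Its SD of log2 CPM was 1.77 in GB-IL against 0.15 in DIO, and 96.2% of the tested genes had a smaller SD in GB-IL.

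Slc25a15 measured 345, 277, 341, 370 and 473 CPM in DIO and 383, 501, 438 and 302 in GB-IL. The groups overlapped except for GB-IL liver 2, which lay above the DIO range (log2 difference 0.17, 95% interval -0.31 to 0.65, adjusted p = 0.650). Thus 4 genes of 1 compartment gave 3 patterns in GB-IL livers 1 and 2, with Nags high, Cps1 and, in liver 1, Slc25a15 inside the DIO range, and Otc low.

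The cytosolic enzymes pointed one way in those livers. Ass1, which joins citrulline to aspartate, measured 1804, 1799, 2263, 2731 and 2576 CPM in DIO and 4365, 3503, 1915 and 1787 in GB-IL. Livers 1 and 2 were above the DIO range and liver 4 just below it (log2 difference 0.37 ± 0.28, SE, adjusted p = 0.413).

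Asl, which splits argininosuccinate into arginine and fumarate, measured 404, 443, 933, 1332 and 1260 CPM in DIO and 4487, 3850, 811 and 457 in GB-IL. It varied widely already among DIO livers, with an SD of log2 CPM of 0.82, and 95.7% of tested genes had a smaller one. Livers 1 and 2 still exceeded the highest DIO liver. The log2 difference of 1.46 ± 0.60 (SE) had an adjusted p of 0.171.

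Arg1, which releases urea and ornithine, measured 966, 954, 1062, 1372 and 1449 CPM in DIO and 3703, 2167, 1582 and 1047 in GB-IL. GB-IL livers 1, 2 and 3 were above all DIO livers and liver 4 within them (log2 difference 0.87 ± 0.32, SE, adjusted p = 0.131).

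Of the glutamine genes, Glul measured 1048, 1028, 1415, 1247 and 1357 CPM in DIO and 456, 355, 987 and 1064 in GB-IL. GB-IL livers 1, 2 and 3 were below the DIO range (log2 difference -0.77 ± 0.45, SE, adjusted p = 0.303). Gls2 measured 362, 395, 487, 387 and 446 CPM in DIO and 403, 304, 327 and 355 in GB-IL, where livers 2, 3 and 4 were below the DIO range (log2 difference -0.26 ± 0.21, SE, adjusted p = 0.449).

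**Figure D2:**
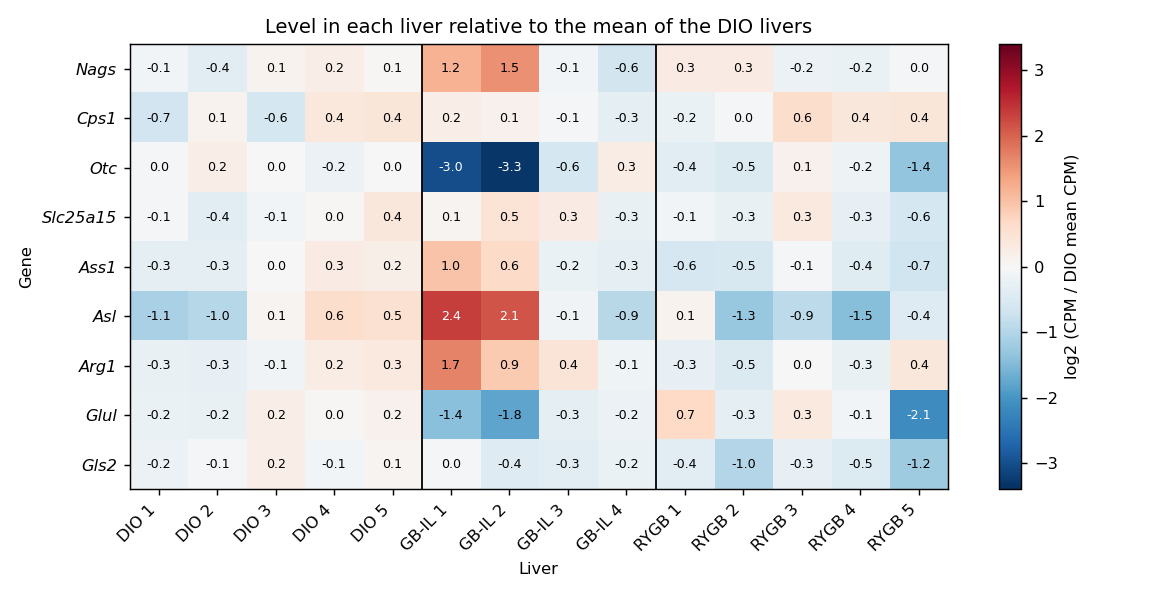
Log2 ratio of CPM in each liver (columns) to the mean of the DIO livers for the 9 genes (rows), red for higher and blue for lower. GB-IL livers 1 and 2 carry the deepest colours, for Asl upwards and Otc downwards, and the Cps1 row is pale throughout.

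GB-IL liver 4 decided whether any of these differences passed the test. Without it, 4 of the 9 genes were called, where 24.6% of all tested genes were called. Nags rose by 1.02 ± 0.28 on the log2 scale (SE, adjusted p = 0.0204), Asl by 1.79 ± 0.53 (0.0269) and Arg1 by 1.09 ± 0.28 (0.0154). Otc fell by 1.76 on the log2 scale (SE 0.54, adjusted p = 0.0301). Glul was at -1.03 ± 0.48 (SE, adjusted p = 0.127), and Ass1 at 0.54 ± 0.27 (SE, adjusted p = 0.149). This liver lay among the DIO livers on the first principal component. Its marker sums, as CPM of the total count, were above the DIO range for macrophage (1099) and stellate cell genes (374). They were below it for erythroid genes (164) and inside it for the other marker lists. Whether the label of this liver is right could not be checked from these files. The labels give no ground to leave it out, so those values stand beside the result with all livers and do not replace it. Leaving out GB-IL liver 1 gave 0 members called, with a log2 difference of 0.97 for Asl and -0.62 for Otc.

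**Figure D3:**
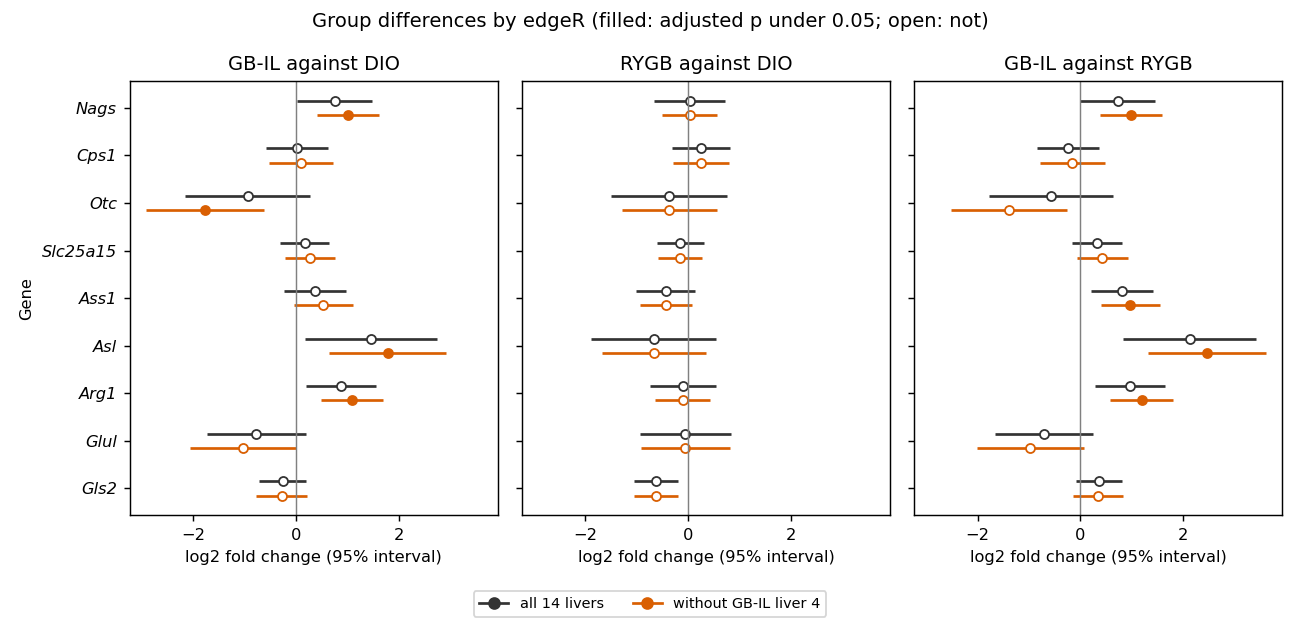
Log2 fold change (points) with its 95% interval (lines) for each gene in the 3 comparisons, with all 14 livers in grey and without GB-IL liver 4 in orange, filled where the adjusted p was under 0.05. All grey points are open, and 4 orange points are filled in the first panel and 4 in the third.

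Ratios between genes inside 1 liver do not depend on the scaling of libraries. Per length, Asl stood to Otc at 0.731 to 2.95 in the DIO livers, and at 70.1, 74.2, 2.36 and 0.734 in GB-IL livers 1 to 4. Arg1 stood to Otc at 3.41 to 6.59 in DIO and at 125, 90.5, 9.97 and 3.64 in GB-IL. Cps1 stood to Otc at 3.91 to 8.85 in DIO and at 56.8, 66.3, 8.66 and 4.08 in GB-IL. The ratio of the cytosolic neighbours Ass1 and Asl was 4.09 to 8.94 in DIO and 1.95, 1.82, 4.73 and 7.83 in GB-IL. In GB-IL livers 1 and 2 the ratios to Otc were all outside the DIO range, and in liver 3 only its ratio to Arg1 was outside the DIO range among those with Otc. RYGB liver 5 was above the DIO range in the same ratios, at 3.16 for Asl, 16.1 for Arg1 and 20.2 for Cps1, whereas RYGB livers 1 to 4 were at 0.688 to 2.38, 4.35 to 5.18 and 6.69 to 8.79.

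**Figure D4:**
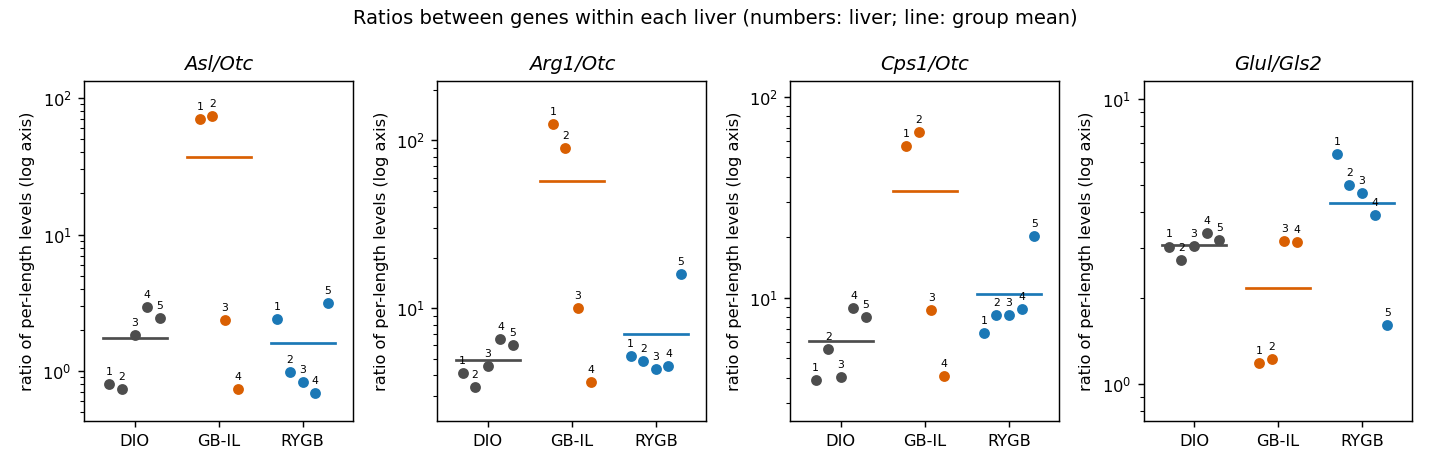
Ratio of per-length levels (log axis) of Asl, Arg1 and Cps1 to Otc and of Glul to Gls2 in every liver, with liver numbers and a line at the group mean. GB-IL livers 1 and 2 lie far above the others in the 3 ratios to Otc, and RYGB livers 1 to 4 lie above all DIO livers in the ratio of Glul to Gls2.

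None of the 9 genes differed between RYGB and DIO at the FDR, where 0% of all tested genes were called. DESeq2 (0.684% of all genes called) and edgeR's exact test (0.302%) also called 0 of the 9, as did the quasi-likelihood test without GB-IL liver 4 (0.0345%), whereas voom with sample quality weights called Asl and Gls2 lower, in a setting that called 11.9% of all tested genes. At an unadjusted p under 0.05 only Gls2 was found by the quasi-likelihood test, against 8.71% of all tested genes. Gls2, the enzyme that frees ammonia from glutamine, measured 317, 206, 342, 304 and 180 CPM in RYGB livers 1 to 5, and each was below the lowest DIO liver at 362. The log2 difference was -0.62 ± 0.20 (SE, unadjusted p = 0.00736 by edgeR, adjusted p = 0.440). Groups without overlap were found for 3.53% of all tested genes in this comparison.

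Glul spread most in RYGB, at 1944, 981, 1524, 1135 and 277 CPM, with livers 1 and 3 above the DIO range and livers 2 and 5 below it. Its SD of log2 CPM was 1.09, and 97.4% of tested genes had a smaller one. The log2 difference from DIO was -0.06 (95% interval -0.94 to 0.83, adjusted p = 0.978), and 0.20 without RYGB liver 5. Per length, Glul stood to Gls2 at 2.72 to 3.37 in DIO, at 6.42, 4.97, 4.67 and 3.91 in RYGB livers 1 to 4 and at 1.61 in liver 5. In GB-IL livers 1 to 4 this ratio was 1.18, 1.22, 3.16 and 3.13. The ratio of the glutamine-making to the glutamine-splitting transcript was thus outside the DIO range in all 5 RYGB livers, upwards in 4 and downwards in 1. Gls2 itself was below the DIO range in all 5, so the ratio in part repeats that result. How often ratios of other gene pairs lay outside their DIO range was not counted.

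Of the cycle itself in RYGB, Ass1 measured 1494, 1527, 2139, 1693 and 1406 CPM, and 4 of 5 livers lay below all DIO livers (log2 difference -0.44 ± 0.27, SE, adjusted p = 0.672). Asl measured 955, 359, 476, 319 and 642 CPM (log2 difference -0.67 ± 0.57, SE, adjusted p = 0.773). Livers 2 and 4 were below the DIO range for Asl, and the others inside it. Arg1 measured 957, 823, 1147, 973 and 1503 CPM (log2 difference -0.10, 95% interval -0.75 to 0.54), with liver 2 below and liver 5 above the DIO range.

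Otc in RYGB measured 352, 323, 502, 407 and 178 CPM (log2 difference -0.37 ± 0.53, SE, adjusted p = 0.879). Livers 1, 2 and 5 were below the DIO range, and liver 5 was the lowest, as it was for Glul and Gls2. Cps1 measured 3079, 3491, 5405, 4691 and 4722 CPM (log2 difference 0.26, 95% interval -0.31 to 0.82), and 1 liver was above the DIO range. Nags measured 84.3, 84.0, 60.2, 58.9 and 67.2 CPM (log2 difference 0.03, 95% interval -0.66 to 0.72), with livers 1 and 2 above the DIO range. Slc25a15 measured 336, 303, 452, 297 and 238 CPM (log2 difference -0.15, 95% interval -0.61 to 0.31), with only liver 5 below the DIO range.

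Between the operations, none of the 9 genes passed the FDR by the quasi-likelihood test, where 0% of all tested genes were called. At an unadjusted p under 0.05, Ass1, Asl and Arg1 were higher in GB-IL than in RYGB, against 22.1% of all tested genes. These are the 3 cytosolic enzymes of the cycle, but beside that share the count is not shown to be particular to them. For Ass1 and Asl only GB-IL livers 1 and 2 exceeded all RYGB livers, and for Arg1 livers 1, 2 and 3. In no member were the groups free of overlap, as they were in 2.84% of all tested genes. Asl averaged 2401 ± 2062 CPM in GB-IL (SD, n = 4) and 550 ± 259 in RYGB (SD, n = 5), a log2 difference of 2.13 ± 0.61 (SE, adjusted p = 0.104 by edgeR). Arg1 averaged 2125 ± 1147 and 1081 ± 263 CPM (log2 difference 0.98 ± 0.32, SE, adjusted p = 0.126 by edgeR). Ass1 averaged 2893 ± 1254 and 1652 ± 292 CPM (log2 difference 0.81 ± 0.28, SE, adjusted p = 0.145 by edgeR). Nags had a log2 difference of 0.73 (adjusted p = 0.227), Slc25a15 of 0.32 (0.395), Gls2 of 0.36 (0.311), Cps1 of -0.24 (0.608), Otc of -0.57 (0.544) and Glul of -0.71 (0.345).

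DESeq2 called Asl and Arg1 in this comparison, where it called 5.96% of all tested genes, and the exact test called Asl alone, at 4.76%. Without GB-IL liver 4, the quasi-likelihood test called 4 of 9 members, Nags, Ass1, Asl and Arg1, all higher in GB-IL, where 21.5% of all tested genes were called. Their log2 differences were then 0.99, 0.97, 2.46 and 1.19.

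Other genes of ammonia and arginine metabolism were taken from fixed lists. Of 16 carriers of amino acids, ammonia and urea, 10 were tested and 0 passed the FDR in any of the 3 comparisons. The 2 carriers with the smallest p, which did not pass, were Slc7a7, which exports cationic amino acids (6.20 ± 2.97 CPM in GB-IL against 3.45 ± 0.70 in DIO, adjusted p = 0.119 by edgeR), and the aspartate and glutamate carrier Slc25a12 (24.3 ± 9.16 against 16.6 ± 2.63 CPM, adjusted p = 0.162 by edgeR). The other aspartate and glutamate carrier, Slc25a13, named after its values were seen, stood at 153 ± 75.0 CPM in GB-IL against 238 ± 35.5 in DIO (log2 difference -0.64 ± 0.28, SE, adjusted p = 0.196 by edgeR). Without GB-IL liver 4 its log2 difference was -0.98 (adjusted p = 0.0161). Of 13 genes that supply nitrogen, bicarbonate or cycle intermediates, all were tested and 0 passed in any comparison. Got1, the cytosolic aminotransferase that makes aspartate, measured 4339, 1442, 573 and 245 CPM in GB-IL livers 1 to 4 against 271 to 704 in DIO (log2 difference 1.91 ± 0.61, SE, adjusted p = 0.0934). Livers 1 and 2, in which Ass1 was high, also had Got1 above the DIO range. GB-IL liver 1 also had a high sum of skeletal muscle genes, given below, and its part in the Got1 and Slc25a12 levels was not tested. Mdh2, a malate dehydrogenase of the mitochondria, measured 510, 652, 184 and 170 CPM in GB-IL against 151 to 282 in DIO (adjusted p = 0.236) and 138 to 240 in RYGB (adjusted p = 0.138).

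Of 13 genes of the ornithine and arginine side routes, 0 passed in any comparison. The arginase of mitochondria, Arg2, stood at 1.97 ± 1.70 CPM in GB-IL (SD, n = 4) and 0.41 ± 0.13 in DIO (SD, n = 5), with an adjusted p of 0.115 by edgeR. Its counts were low, at 5 to 11 per liver in DIO and 77, 45, 28 and 3 in GB-IL livers 1 to 4. By CPM, GB-IL liver 4 was below the DIO range. Prodh, which oxidises proline, stood at 142 ± 47.8 CPM in RYGB against 268 ± 98.0 in DIO (adjusted p = 0.427 by edgeR). Of 15 regulators of these genes, 0 passed in any comparison, and against DIO in GB-IL 2 were higher and 6 lower at an unadjusted p under 0.05, against 23.1% of all tested genes in either direction. Cebpb, a transcription factor induced by glucagon and inflammation, measured 156, 127, 88.0 and 41.6 CPM in GB-IL livers 1 to 4 against 26.9 to 49.9 in RYGB (log2 difference 1.34 ± 0.37, SE, adjusted p = 0.0948). The median log2 difference between GB-IL and DIO was -0.41 over the regulators, beside 0.04 over all tested genes. Without GB-IL liver 4, the genes called in GB-IL against DIO were 2 higher and 1 lower among the carriers, 3 higher and 4 lower among the supply genes, 1 higher and 2 lower among the side routes, and 3 higher and 4 lower among the regulators, where 24.6% of all tested genes were called.

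Because the cycle and glutamine synthesis occupy opposite ends of the lobule, genes of the periportal and perivenous zones were set beside them. Of 11 periportal genes, Sdsl, which breaks down serine and threonine, was the only one called, in GB-IL against DIO (log2 difference 2.81 ± 0.70, SE, adjusted p = 0.0422), beside 3.26% of all tested genes. No gene, Sdsl included, was called in that comparison with the 2 groups alone, without GB-IL liver 1 or 2, or without any 1 of the DIO livers. It measured 116, 115, 16.3 and 5.98 CPM in GB-IL livers 1 to 4 against 4.77 to 12.7 in DIO, so livers 1 and 2 were again apart and liver 4 within the DIO range. Cdh1, an adhesion protein of epithelial cells that is stronger near the portal vein, was at 45.1 ± 16.6 CPM in RYGB against 11.8 ± 6.14 in DIO (SD, n = 5 each, adjusted p = 0.331 by edgeR) and did not pass.

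Of 13 perivenous genes, 0 were called in any comparison. Axin2, a Wnt target, stood at 3.73 ± 1.23 CPM in GB-IL, 4.84 ± 0.70 in DIO and 9.51 ± 3.19 in RYGB, with an adjusted p of 0.0770 by edgeR between the operations and 0.348 between RYGB and DIO. Tbx3 stood at 16.8 ± 12.7, 26.6 ± 6.78 and 45.1 ± 10.7 CPM in the same order (adjusted p = 0.0998 by edgeR between the operations). The summed level of the 13 genes, as CPM of the total count, was 9348 to 12858 in DIO. In GB-IL livers 1 to 4 it was 4202, 2472, 10245 and 11407, and in RYGB livers 1 to 5 it was 14228, 9259, 12480, 13351 and 3408. The 3 lowest sums thus came from GB-IL livers 1 and 2 and RYGB liver 5, the same 3 livers that had the least Glul. The sum is mostly Cyp2e1, which made up 65.1% to 73.0% of it in DIO, and the list did not move as 1 block. Of its 13 genes, 9 were below the DIO range and 1 above in GB-IL liver 1, 9 below and 2 above in GB-IL liver 2, and 9 below and 3 above in RYGB liver 5. Without GB-IL liver 4, the GB-IL against DIO calls were 3 higher and 2 lower among the periportal genes, and 0 perivenous genes were called, beside 24.6% of all tested genes. In GB-IL against RYGB without that liver, 2 periportal genes were higher and 1 lower, and 3 perivenous genes were lower, beside 21.5% of all tested genes. The periportal sum was 4092 to 5969 in DIO, 4784 to 6898 in GB-IL and 4021 to 6324 in RYGB. This list did not move as 1 block either, by genes named after their values were seen. On the TMM scale, Cyp2f2, Hal, Uroc1 and Ctsc were below the DIO range in both GB-IL livers 1 and 2. Pck1, Cdh1 and Sdsl were above it there. Cyp2f2 measured 73.3 and 159 CPM against 585 to 1073 in DIO, and Pck1 5139 and 3792 against 1547 to 3190. In RYGB liver 5, Cyp2f2, Hal and Uroc1 were below the range and Cdh1, Sdsl and Aldh1b1 above it.

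Markers of other cells also differed between livers, and their part in the member levels was not tested. As CPM of the total count, the sum of 9 neutrophil genes was 4.94 to 9.84 in DIO, 110, 47.8, 455 and 6.28 in GB-IL livers 1 to 4, and 158 in RYGB liver 5 against 7.26 to 12.1 in the other RYGB livers. The sum of 9 cholangiocyte genes was 49.0 to 77.7 CPM in DIO, 320, 272, 223 and 75.0 in GB-IL and 78.1 to 98.4 in RYGB. GB-IL liver 3, with the highest neutrophil sum and the lowest hepatocyte sum, had Nags, Cps1, Slc25a15, Ass1 and Asl inside the DIO range, Arg1 above it, and Otc, Glul and Gls2 below it. The macrophage sum was 457 to 823 CPM in DIO, 692 to 2530 in GB-IL and 546 to 1170 in RYGB. The stellate cell sum was 208 to 340, 269 to 879 and 301 to 605 in the same order. The sinusoidal endothelial sum was 237 to 323, 250 to 343 and 223 to 667, and the erythroid sum 247 to 2440, 164 to 1771 and 117 to 2064. RYGB liver 5 had the highest stellate cell, endothelial and erythroid sums of its group. The skeletal muscle sum reached 1706 CPM in GB-IL liver 1 and at most 4.01 in every other liver, and GB-IL liver 2, with 3.43, showed the same members outside the DIO range plus Slc25a15 and Gls2.

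**Figure D5:**
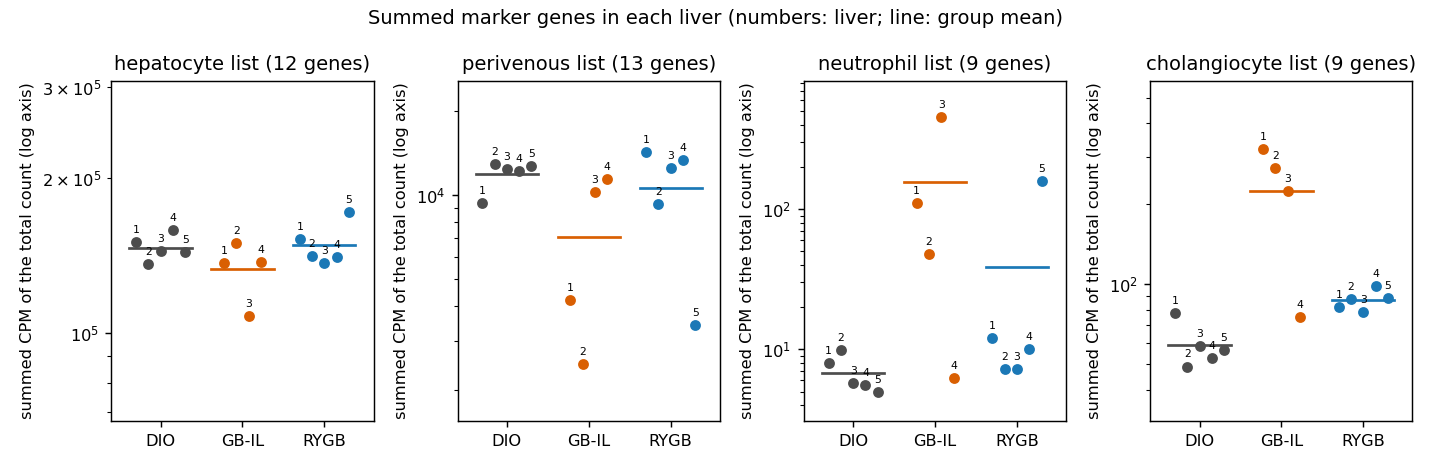
Summed CPM of the total count (log axis) of marker lists for hepatocytes, perivenous hepatocytes, neutrophils and cholangiocytes in every liver, with liver numbers and a line at the group mean. GB-IL livers 1 and 2 and RYGB liver 5 are lowest in the perivenous panel, and GB-IL liver 4 is within the range of the DIO livers in all 4 panels.

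Genes whose level followed that of Cps1 or Glul over the livers were sought among 7744 genes with a mean of at least 10 CPM. For Cps1 they were Cep110 (Spearman rho 0.83 over 14 livers), Senp1 (0.81) and Sik3 (0.80). For Glul they were 0610012H03Rik (rho 0.89), Mrps5 (0.86) and Mtfr1l (0.86). Over the 12 livers without GB-IL livers 1 and 2, a choice made after seeing the data, rho was 0.84, 0.85 and 0.86 for the first 3 and 0.84, 0.81 and 0.83 for the others. The 12 livers are among the 14 by which these genes were picked out of 7744, so a high rho there was favoured in advance. The points share libraries and depth, and the coefficients are a description.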

How the data were processed

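Liver RNA of 14 mice was measured, 1 library per liver. The authors amplified the RNA, aligned reads to mm10 with TopHat 2 and deposited whole counts per gene from HTSeq, without normalization. Tool versions, gene annotation and strandedness of counting were not given in the sources used here. Which of 2 stranded library kits each liver had is not stated by the labels, so no kit term could be fitted. Livers are labelled as separate samples, and the labels name no sequencing batch.

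Tests were run with edgeR 4.0.16 in R 4.3.3 (filterByExpr by group, TMM, quasi-likelihood F test, 1 mean per group, all 14 livers), with p-values adjusted by Benjamini-Hochberg over 14252 genes at an FDR of 0.05. Per-length levels used the union exon length of GENCODE M21, to which 24701 of 25212 identifiers matched, and promoter windows were found for 5 of the 9 genes. DESeq2 1.42.0, limma 3.58.1 voom, edgeR's exact test, other scalings and filters, the 2 groups alone, a replicate block and each liver left out were the alternatives. The test was tested on simulated data. Figures used Python 3.11.15 with matplotlib 3.10.9. Members and lists were chosen with earlier results of these data known. Beyond the 9 members, genes were named by smallest p in each list, at 2 per list where fewer than 2 passed the FDR, and the 3 nearest patterns by Spearman correlation for Cps1 and Glul. Genes that overlap a member were named for that alone, and further genes named after their values were seen are marked as such. For 1 gene chosen this way, values are not reported here.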

Additional observations from a re-analysis of the deposited data

How the results depend on the processing

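The count of members called at the FDR stayed at 0 of 9 in all 3 comparisons under RLE, upper quartile and total-count scaling, without the filter, with a mean of at least 50 counts, and with the 2 compared groups alone. It became 2 for RYGB against DIO with voom and sample quality weights, and for GB-IL against RYGB 2 with DESeq2 and 1 with edgeR's exact test. With single livers left out it ranged from 0 to 4 when GB-IL was compared with either other group, where 4 was reached without GB-IL liver 4, and it was 0 throughout for RYGB against DIO. The cause was not tested. With the replicate number as a block, 0 members were called in each comparison. Same-numbered livers did not deviate together (correlation above 0.1 in 2 of 13 pairs, range -0.38 to 0.38), so the numbers were not taken to pair the livers.

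Small differences changed sign. Cps1 in GB-IL against DIO was -0.031 on the log2 scale with total-count scaling, -0.18 with voom, -0.0042 without the filter and -0.11 to 0.14 with livers left out. Ass1 in the same comparison was -0.12 with voom. In RYGB against DIO, Glul was 0.0012 with total-count scaling and -0.32 to 0.20 with livers left out. Nags in that comparison was -0.081 with voom, -0.043 with the replicate block and -0.044 to 0.093 with livers left out. None of these passed the FDR.

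Over all genes, GB-IL against DIO gave 465 called genes, 1292 with DESeq2, 1127 with the exact test, 1 with the replicate block, 0 with the 2 groups alone and 0 to 3572 with livers left out. RYGB against DIO gave 0, or 97 with DESeq2, 43 with the exact test, 1690 with voom, 33 with the 2 groups alone and 0 to 5 with livers left out. GB-IL against RYGB gave 0, or 845, 678 and 115 with DESeq2, the exact test and voom, 51 without the filter and 0 to 3120 with livers left out. The mean summed level of the 9 genes moved by less than its SD with CPM of the total count.

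Every member had at least 807 counts in every liver. The RNA was amplified, and the kit of each liver is not stated. The median SD of log2 CPM over all tested genes was 0.57 in GB-IL, 0.29 in DIO and 0.30 in RYGB. P-values weigh a group difference against the spread between these livers only. In the main test the 3 groups share 1 estimate of that spread per gene. The wider spread in GB-IL therefore also enters the test of RYGB against DIO. No liver was far enough from its group for any of 27 member and group combinations by Dixon's limit, where chance gives about 1 in 20. That limit weighs only the gap between the most extreme liver and its nearest neighbour. It can therefore miss livers that stand apart together, as in GB-IL for Asl and Otc. The absence of flags does not show that the livers of a group were alike.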
